A study of Mus musculus with 190 samples.

Results

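Keratins and keratin-associated proteins are the structural proteins of skin and hair, and their transcripts were followed here in whole blood. The 110 genes were the protein-coding entries of the deposited count table whose symbols are Krt or Krtap followed by a number, 53 keratins and 57 keratin-associated proteins among 55414 entries. The blood came from male wild-type NC/Nga mice, an inbred strain that develops dermatitis resembling atopic dermatitis in conventional housing. The 9 conventional cohorts of 10 libraries each were bled first on day 2, 5, 9, 12, 16, 19, 23, 26 or 30 (cohorts 1 to 9) and a second time later, the odd-numbered cohorts on day 44 and the even-numbered ones on day 40. A single specific-pathogen-free (SPF) control cohort of the same strain, sex and genotype gave 5 libraries on day 16 and 5 on day 44, all with a dermatitis score of 0. No age was given, and the sources do not say whether equal replicate numbers at both samplings mark the same mouse. The study asked how the blood transcriptome looks before and after onset of dermatitis and how it follows severity, which was scored per mouse at 0 to 4 in the conventional libraries.

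Keratins are filament proteins that assemble as pairs of a type I with a type II chain. Basal keratinocytes make Krt5 and Krt14, suprabasal keratinocytes Krt1 and Krt10, and stressed or wounded epidermis Krt6a, Krt16 and Krt17. Hair follicles use separate sets, in which Krt25, Krt27 and Krt71 build the inner root sheath, the hair keratins such as Krt33b, Krt34, Krt81 and Krt86 build the shaft, and keratin-associated proteins cross-link the shaft filaments. Single-layered epithelia make Krt7, Krt8, Krt18 and Krt19. Blood cells are not known as a main site of these sets.

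All 10 blood cell genes followed, among them Ptprc, S100a8, Ppbp and Hbb-bs, had counts in all 190 libraries. Total counts per library were 21444129 to 71967299 with a median of 36448181. The share of counts on globin genes had a median of 7.83% in cohorts 6 to 9 and 3.58% in cohorts 1 to 4, and 1 library, SPF day 16 replicate 3, had 45.3%. Levels are given as CPM, counts scaled to a common library total, after TMM scaling, a correction for library composition. In bulk blood, fewer cells of a type and less RNA per cell cannot be told apart.

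The results turn on 3 kinds of member, those of the hair follicle, those of the epidermis and Krt7, and 6 of their promoters are shown to set these kinds side by side. In the files' GRCm39 coordinates, 26 keratin genes lay on chromosome 15 and 27 on chromosome 11, and 24 keratin-associated genes lay on chromosome 16 and 23 on chromosome 11. RefSeq promoter sequences (GRCm38.p6, 250 bases before and 50 after the listed start, on the gene's strand) were at hand for 87 of the 110 genes. Capitals mark TATAAA on the gene's strand within 60 bases before the start, and CTTTG on either strand, so that CAAAG is its reverse complement. The windows lie at chr11:99322902-99323201 (Krt25, minus strand), chr15:101743048-101743347 (Krt71, minus), chr11:100029819-100030118 (Krt33b, minus), chr16:88828759-88829058 (Krtap15, plus), chr15:101712856-101713155 (Krt5, minus) and chr15:101412153-101412452 (Krt7, plus).
Krt25: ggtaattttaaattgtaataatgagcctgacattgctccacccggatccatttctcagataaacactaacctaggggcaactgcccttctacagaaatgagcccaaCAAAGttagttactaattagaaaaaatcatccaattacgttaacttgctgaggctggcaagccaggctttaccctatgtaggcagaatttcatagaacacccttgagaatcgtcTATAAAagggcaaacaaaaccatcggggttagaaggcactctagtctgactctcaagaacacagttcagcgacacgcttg
Krt71: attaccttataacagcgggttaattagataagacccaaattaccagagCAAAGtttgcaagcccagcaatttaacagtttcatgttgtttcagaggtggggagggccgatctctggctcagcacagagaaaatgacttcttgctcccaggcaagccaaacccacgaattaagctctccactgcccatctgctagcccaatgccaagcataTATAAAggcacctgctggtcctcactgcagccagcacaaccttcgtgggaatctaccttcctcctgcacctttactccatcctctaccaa
Krt33b: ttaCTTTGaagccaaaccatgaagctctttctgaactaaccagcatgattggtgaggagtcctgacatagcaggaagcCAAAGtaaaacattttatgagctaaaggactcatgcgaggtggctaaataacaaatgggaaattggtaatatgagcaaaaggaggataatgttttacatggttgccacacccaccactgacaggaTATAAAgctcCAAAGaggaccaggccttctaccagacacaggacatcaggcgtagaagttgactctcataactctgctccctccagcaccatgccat
Krtap15: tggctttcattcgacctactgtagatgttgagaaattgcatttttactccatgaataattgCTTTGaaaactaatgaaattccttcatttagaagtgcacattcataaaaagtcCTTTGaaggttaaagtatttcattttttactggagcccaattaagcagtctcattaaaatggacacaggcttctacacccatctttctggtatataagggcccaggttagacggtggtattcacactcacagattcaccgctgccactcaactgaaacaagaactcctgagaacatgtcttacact
Krt5: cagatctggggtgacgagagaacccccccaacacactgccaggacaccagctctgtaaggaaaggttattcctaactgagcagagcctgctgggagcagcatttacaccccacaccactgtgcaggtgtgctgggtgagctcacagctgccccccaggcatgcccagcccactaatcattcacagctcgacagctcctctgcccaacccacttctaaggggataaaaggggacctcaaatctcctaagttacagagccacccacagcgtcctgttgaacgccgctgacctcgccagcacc
Krt7: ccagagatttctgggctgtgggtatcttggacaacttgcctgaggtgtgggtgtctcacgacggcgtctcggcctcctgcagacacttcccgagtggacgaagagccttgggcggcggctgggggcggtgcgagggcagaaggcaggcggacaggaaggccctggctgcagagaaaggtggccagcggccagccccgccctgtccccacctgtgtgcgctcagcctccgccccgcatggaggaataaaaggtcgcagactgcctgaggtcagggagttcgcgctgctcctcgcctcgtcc

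The window of Krt25 held TATAAA 30 bases before the start, that of Krt71 40 bases and that of Krt33b 47 bases before it, and the windows of Krtap15, Krt5 and Krt7 did not hold it there. TATAAA was found in 53 of the 87 windows (60.9%), against 3.25% of 27025 promoters. Its counts were 37 of 51 windows of keratin-associated genes, 6 of 8 of inner root sheath keratins, 5 of 9 of hair keratins and 1 of 7 of epidermal keratins. CTTTG was in 63.2% of the members' windows and in 54.04% of all. The longer CTTTGAA, which contains CTTTG and belongs to a motif known for the hair follicle factor Lef1, was in 17.2% of the members' windows, among them 5 of 9 of hair keratins and 0 of 7 of epidermal keratins, against 5.27% of all. A match describes these letters only.

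Some members share stretches of sequence, so their counts are uncertain to that extent. Of all 110 members, 52 shared at least 1 window of 75 bases with another protein-coding gene's transcript and 27 shared over 10% of their windows (GENCODE transcripts). The share was 70.9% in Krtap4-13, 42.3% in Krt6a, 35.5% in Krt81 and 33.51% in Krt86, and 0 in Krt7, Krt8, Krt19 and Krt80.

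Most members had no count in most libraries. A library held counts for 4 to 94 members with a median of 14, 1 member (Krt76) had no count in any library, and only Krt80 and Krt7 had one in every library. A filter on low counts passed 77 members among 18192 genes tested, including all 15 hair keratins, all 8 inner root sheath keratins, 37 of 57 keratin-associated proteins, 10 of 14 epidermal keratins and 5 of 6 simple epithelial keratins. A member at or near 0 in most libraries could pass this filter only through the few libraries where it was high. By median length-normalised level over the 190 libraries, the order was Krt80 with 0.235 TPM (a length-normalised share of transcripts), Krt7 with 0.1455, Krt10 with 0.0775, Krt222 with 0.047, Krt18 with 0.04 and Krt14 with 0.025. By mean TPM the order was led by Krtap22-2 with 1.57, Krtap7-1 with 1.16 and Krtap15 with 0.935, each with a median of 0. Krtap15 had a count in 16 libraries and Krtap22-2 in 21, so the order by mean was that of a few libraries.

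Krt80, a type II keratin of differentiating epithelia, and Krt7, a keratin of simple epithelia, were the members present throughout the blood. Krt80 had 0.671, 2.77 and 5.63 CPM in the second sampling (lowest, median and highest of 90 conventional libraries), 1.20, 2.42 and 5.92 CPM in the first sampling of 90, and 0.991, 3.57 and 4.79 CPM in 10 SPF libraries. These ranges overlap almost wholly. Krt7 had 0.305, 1.76 and 4.00 CPM in the second sampling, 0.217, 0.968 and 2.58 CPM in the first and 0.396, 1.09 and 2.25 CPM in SPF libraries. Krt222, a keratin-like protein of type I, was at 0 in 6 libraries, with medians of 0.389 CPM in the second sampling and 0.538 CPM in the first. Krt10 was at 0 in 15 libraries and Krt18, the partner of Krt8, in 22.

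**Figure D1:**
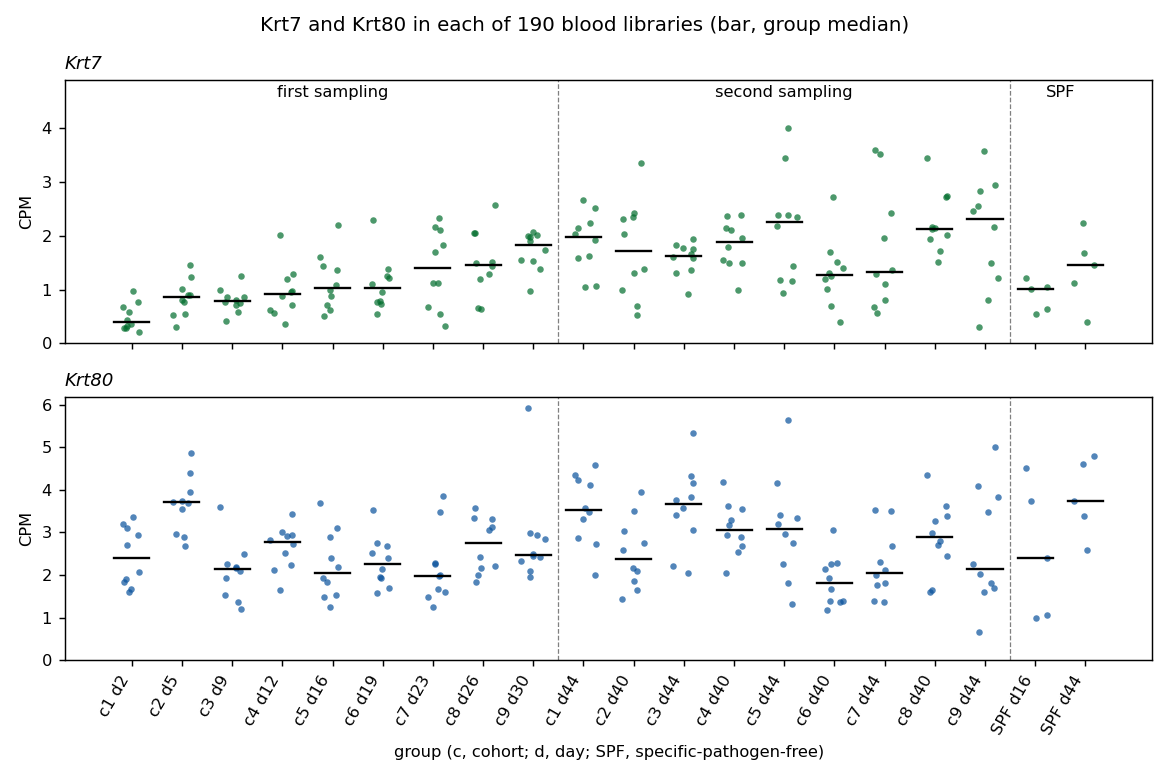
Krt7 (top) and Krt80 (bottom) in CPM for each of 190 libraries, by group of cohort and day, with SPF groups at the right. Points are libraries and bars group medians. The Krt7 median was 0.398 CPM on day 2 and 1.82 CPM on day 30, while Krt80 showed no such order.

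Krt7 followed the day of bleeding. Its group medians in the first sampling were 0.398, 0.856, 0.794, 0.914, 1.03, 1.04, 1.41, 1.46 and 1.82 CPM from day 2 to day 30. The rise was 0.53 ± 0.07 log2 per 10 days (SE, 90 libraries, adjusted p = 1.36e-09 by edgeR's quasi-likelihood test with Benjamini-Hochberg adjustment over all genes tested, as in every adjusted p below). Within cohorts 1 to 4 alone the slope was 0.77 ± 0.27 with an edgeR adjusted p of 0.0321, and within cohorts 6 to 9 alone it was 0.56 ± 0.23 with an edgeR adjusted p of 0.22. Between samplings of the same cohorts Krt7 was higher in the second by 0.79 ± 0.10 log2 (edgeR adjusted p = 3.8e-12), with values of 1.22 ± 0.13 within cohorts 1 to 4 and 0.35 ± 0.15 within cohorts 6 to 9 (edgeR adjusted p = 0.082). No other member was called higher in the second sampling over all cohorts. Within cohorts 1 to 4 Krt80 was called higher too, against 32% of all genes tested, and within cohorts 6 to 9 only Krt6b was, against 13.6%. The day of the first sampling is set per cohort, so for this slope day cannot be told apart from cohort.

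Hair follicle genes were present as single libraries. The summed level of 15 hair keratins had a median of 0.257 CPM over all 190 libraries, yet it exceeded 10 CPM in 10 of them, a limit set after the values were seen. Of these 10, called hair libraries below, 1 was of the second sampling, 9 of the first and 0 SPF. The dermatitis score was 0 in 8 of them and 1 in 2. Just below the limit were cohort 1 day 44 replicate 6 with 4.95 CPM and cohort 1 day 2 replicate 7 with 4.39 CPM. The same 10 libraries held over 90% of the reads of 71 members and over 50% of the reads of 85.

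The library with most keratin reads was cohort 5 day 44 replicate 5, score 0, in which 94 members had a count and members took 0.202% of all counts. It held 504 CPM of hair keratins, 301 CPM of inner root sheath and companion layer keratins, 857 CPM of keratin-associated proteins and 12.2 CPM of epidermal keratins other than Krt80. For 56 of the 110 members it was the highest library. Its genes included Krt25 with 135.9 CPM, Krtap15 with 106.6 CPM, Krt81 with 88.4 CPM, Krt71 with 78.2 CPM and Krt33b with 63.5 CPM. Tchh, which encodes trichohyalin of the inner root sheath, reached 336 CPM there, whereas Acan, a cartilage proteoglycan, was at 0.

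The other 9 fell into different mixtures of shaft and sheath genes. Cohort 4 day 12 replicates 5 and 4 and cohort 6 day 19 replicate 3 resembled it, with 236.7, 172.3 and 166.6 CPM of hair keratins, 178.04, 165.7 and 132.5 CPM of inner root sheath keratins and 496, 445 and 582 CPM of keratin-associated proteins. Cohort 2 day 5 replicate 7 had 201 CPM of hair keratins and 274 CPM of keratin-associated proteins but 3.33 CPM of inner root sheath keratins, with Krt25 at 0.546 CPM. The reverse mixture, sheath over shaft, was seen in cohort 4 day 12 replicate 2 (119.3 CPM of inner root sheath keratins, 17.9 CPM of hair keratins and 0 CPM of Krt33b), cohort 5 day 16 replicate 9 (59.1 and 26.0 CPM) and cohort 3 day 9 replicate 7 (50.7 and 12.2 CPM). Cohort 1 day 44 replicate 6, below the limit, also had this mixture, with 68.1 CPM of inner root sheath keratins, among them Krt25 at 29.2 CPM.

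Cohort 2 day 5 replicate 8 held another set, in which Krt36 with 8.52 CPM and Krt84 with 7.44 CPM, hair keratins known also from the tongue papillae of the mouse, stood beside Krt2 with 5.97 CPM, a keratin of the upper epidermis of ear, sole and tail. Its inner root sheath keratins summed to 0.892 CPM and Tchh was at 0. In cohort 9 day 30 replicate 6, score 1, the sums were 11.2 CPM of hair keratins and 8.58 CPM of inner root sheath keratins. None of the 10 SPF libraries exceeded 0.971 CPM of hair keratins, 0.416 CPM of inner root sheath keratins or 0.624 CPM of keratin-associated proteins.

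Markers of other tissues moved with these libraries in part. The desmosome genes, which tie epithelial cells together, summed to 17.6 to 199 CPM in the 10 libraries, against a median of 4.91 CPM over all. The summed level of 8 skin fibroblast genes ranged from 11.5 to 362 CPM in them, against a median of 25.4 CPM over all. Tchh was above 10 CPM in 9 of the 10 and at 0 in cohort 2 day 5 replicate 8. The part of these tissues in the keratin levels was not tested.

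**Figure D2:**
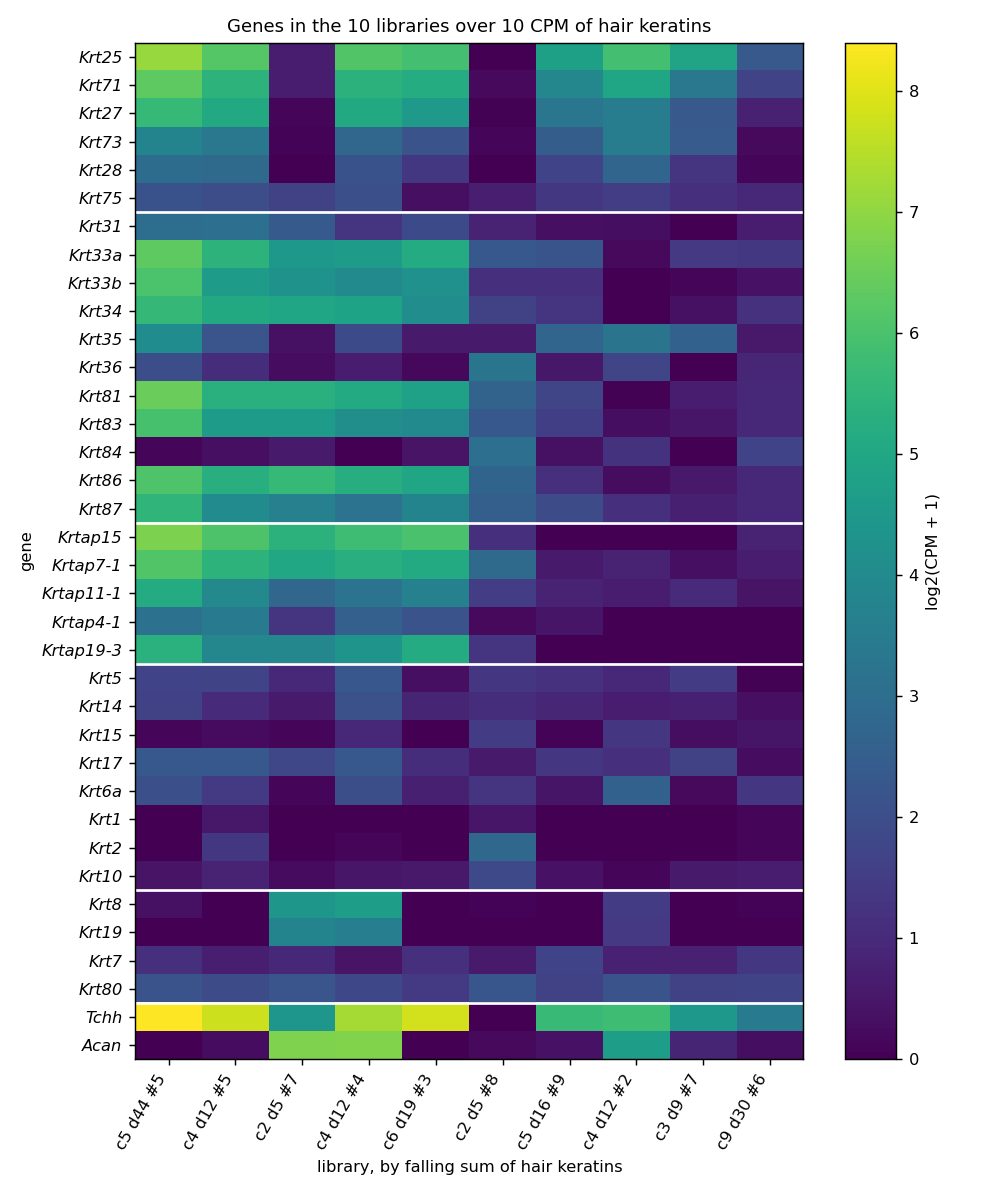
Levels of 34 members, of Tchh and of Acan as log2(CPM + 1) in the 10 libraries with over 10 CPM of hair keratins, ordered by that sum. Columns are libraries (c, cohort; d, day; number sign, replicate) and white lines separate inner root sheath, hair, keratin-associated, epidermal and simple keratins from the last 2 genes. Krtap15 was at 106.6 CPM in the leftmost library and at 0 in cohort 5 day 16 replicate 9, cohort 4 day 12 replicate 2 and cohort 3 day 9 replicate 7.

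Epidermal keratins never reached such levels, and they were partly high elsewhere. Their sum without Krt80 exceeded 5 CPM, again a limit set after the values were seen, in 12 libraries, 6 of them among the 10 hair libraries. The other 6 had hair keratins under 5 CPM. Among them cohort 2 day 5 replicate 3, with 16.8 CPM, held the basal and wound-type genes Krt15 with 4.19 CPM, Krt6a with 3.68 CPM and Krt5 with 2.14 CPM.

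Cohort 9 day 44 replicate 7 (15.7 CPM, score 2) and cohort 7 day 44 replicate 8 (13.6 CPM, score 1) held mostly the suprabasal genes. Krt10 was at 5.30 and 5.14 CPM and Krt1 at 6.22 and 2.69 CPM in these 2 libraries. Cohort 5 day 44 replicate 6 (11.05 CPM, score 1) was of the same kind, with Krt10 at 4.06 CPM and Krt1 at 2.44 CPM. Cohort 1 day 2 replicate 8 (9.30 CPM) had Krt2 at 4.61 CPM, and cohort 2 day 5 replicate 10 (5.64 CPM) had Krt5 at 2.37 CPM.

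The cornified envelope genes, which harden the outermost epidermis, did not move as 1 list. Their summed level had a median of 38.8 CPM in the second sampling (6.10 to 167.7 CPM) and 14.1 CPM in the first (4.48 to 109.2 CPM), and most of it was Asprv1, a protease that processes filaggrin, with medians of 33.7 and 11.08 CPM and a count in every library. Without Asprv1 the medians of the sum were 4.74 and 1.87 CPM. In SPF libraries Asprv1 had 2.91 to 11.5 CPM. Which cells its transcripts came from was not tested. Of the 12 list members tested, 3 were called higher in the second sampling, Asprv1 by 1.43 ± 0.15 log2, the cross-linking enzyme Tgm1 by 2.17 ± 0.21 and Flg, the filaggrin gene, by 1.51 ± 0.44 (SE, edgeR adjusted p = 0.0018), and 4 were called lower, Calml3, Ivl, Lgals7 and Sbsn. Of all 18192 genes tested, 5720 were called higher and 5573 lower. Flg had a median of 0 CPM in both samplings, with highest values of 5.98 and 1.91 CPM, so its call rests on few libraries. Over the days of the first sampling 9 of the 12 were called, against 4817 higher and 4702 lower of all genes tested. Asprv1 (0.78 ± 0.09 log2 per 10 days) and Tgm1 (1.39 ± 0.17) were higher. The 7 lower ones included Flg at -1.18 ± 0.31. With the score of the first sampling Asprv1 and Tgm1 were called higher and 0 lower, against 1126 higher and 702 lower. In conventional against SPF libraries on day 44 both were called higher and Sbsn lower, against 1995 higher and 1861 lower. With the score of the second sampling Asprv1 and Tgm1 were called higher and Hrnr, Ivl and Lgals7 lower, against 3442 higher and 3225 lower of all genes tested. Between the days of cohort 5, Asprv1, Tgm1, Tgm3 and Ivl, 4 members, were called higher on day 44, against 1544 of all genes tested. The call of Ivl (edgeR adjusted p = 0.048) rests on low counts. Its median was 0 CPM in both samplings, and it had at most 0.420 CPM in the second. This comparison includes cohort 5 day 44 replicate 5. Low members were Lor, at most 0.369 CPM, Ivl, at most 0.736 CPM, and Sprr2d and Sprr1b, at 0 in every library. The part of these genes in the keratin results was not tested.

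**Figure D3:**
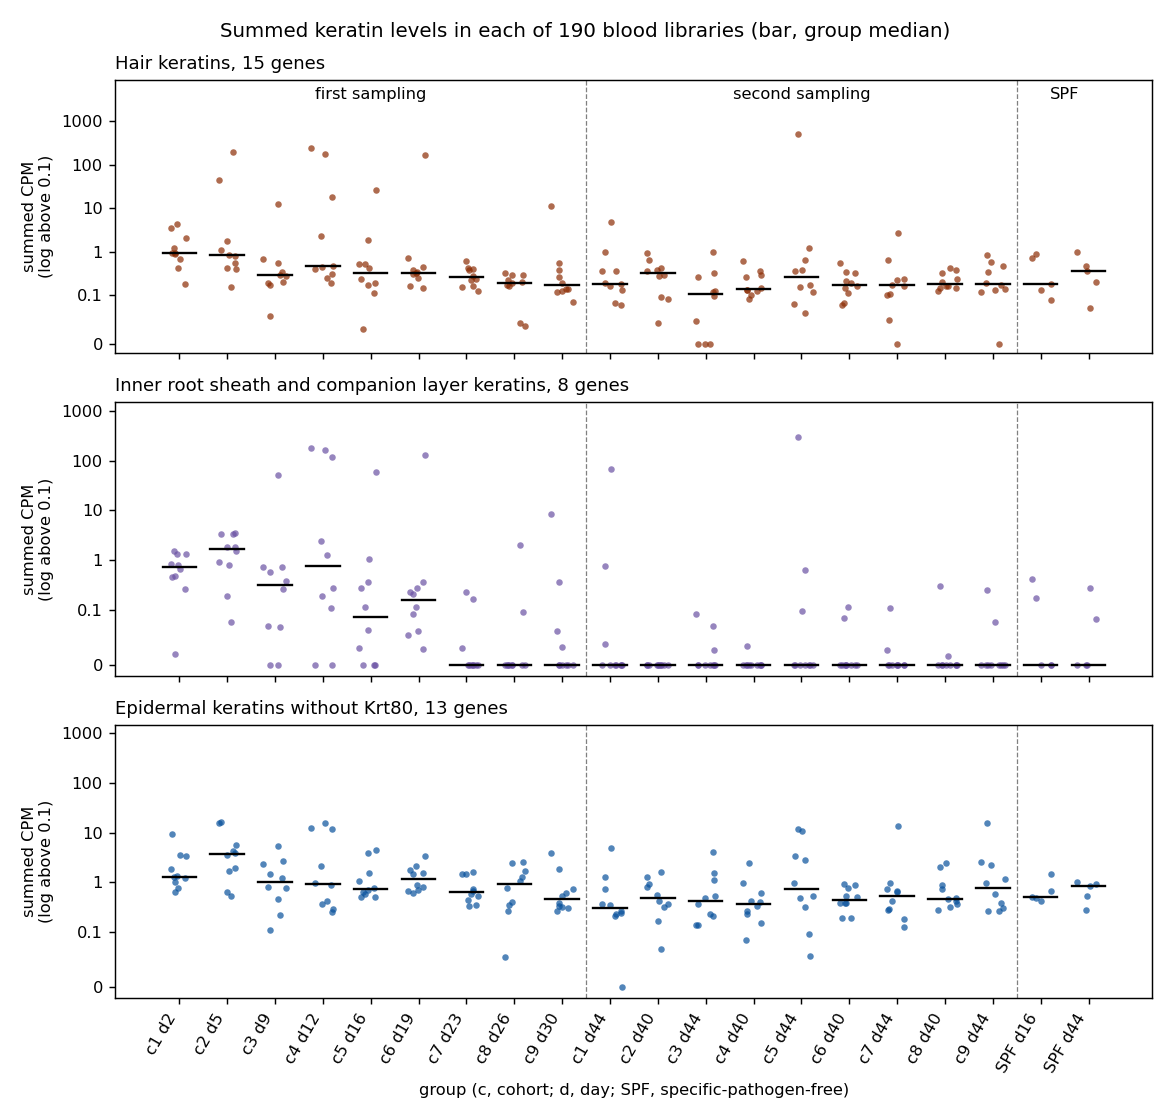
Summed CPM of hair keratins (15 genes), inner root sheath and companion layer keratins (8 genes) and epidermal keratins other than Krt80 (13 genes) in each of 190 libraries, on an axis that is logarithmic above 0.1. Points are libraries and bars group medians. Single libraries reach 504 CPM of hair keratins and 301 CPM of inner root sheath keratins, whereas epidermal keratins do not exceed 16.8 CPM.

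Krt8 and Krt19 appeared together and in few libraries. Krt8, the type II keratin of simple epithelia that is also known from notochord-derived cells of the intervertebral disc, had a median of 0 and was above 1 CPM in 21 libraries, of which 4 were of the second sampling, 14 of the first and 3 SPF. Krt19, a type I keratin of simple epithelia, was above 1 CPM in 18 libraries, each of them among the 21. The highest values were 27.6 CPM of Krt8 and 9.79 CPM of Krt19 in cohort 5 day 16 replicate 2, and 27.005 and 12.1 CPM in SPF day 44 replicate 3. Cohort 1 day 2 replicate 10 had the highest Krt19, 14.2 CPM, beside 19.2 CPM of Krt8. Only 3 of the 21 libraries were among the 10 with over 10 CPM of hair keratins.

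Cartilage genes were high in the same libraries. Acan was above 1 CPM in all 21 and in 3 others, with 4.40 to 276 CPM in the 21, and Col2a1, the main collagen of cartilage, was between 0.666 and 18.1 CPM in them. Car3, a carbonic anhydrase of fat and slow muscle, was between 5.21 and 422 CPM in them. The other adipocyte markers followed, Adipoq, Plin1, Cidec and Cfd, stayed at or below 0.23 CPM in the 21 libraries. The part of cartilage or disc tissue in Krt8 and Krt19 was not tested.

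**Figure D4:**
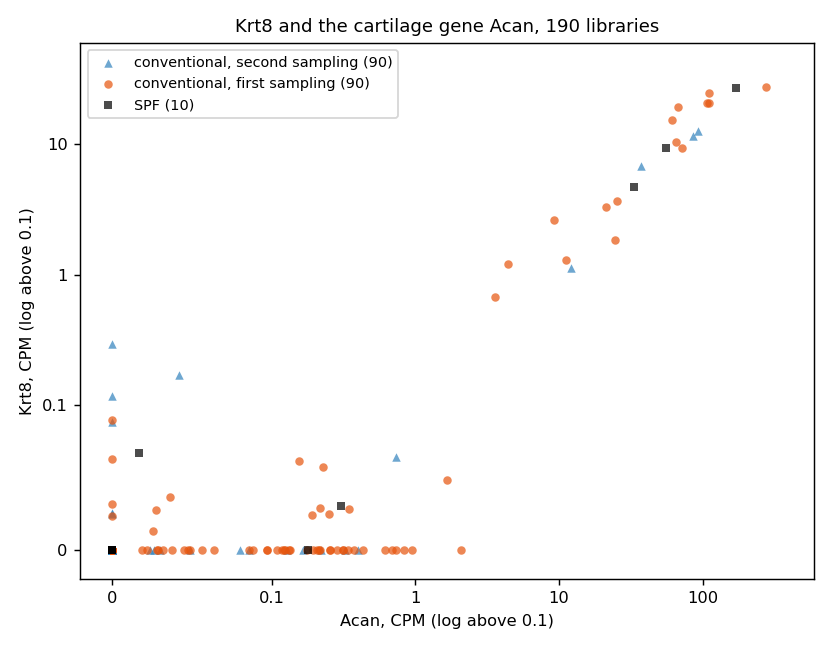
Krt8 against Acan in CPM in 190 libraries, both axes logarithmic above 0.1, with triangles for the second sampling, circles for the first and squares for SPF. The 21 libraries above 1 CPM of Krt8 all lie above 4 CPM of Acan, and the highest reaches 276 CPM.

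Across the 20 groups of cohort and day, 74 of the 77 tested members differed somewhere by edgeR's F test, against 70.8% of all genes tested. Without the 10 hair libraries 56 members were called, against 68.1% of all genes tested. With limma on log2(CPM + 1) 12 members were called, against 71.1%. With DESeq2 21 were called, where members lacking an adjusted p count as not called. No share of all genes is given for that fit, so its count does not show whether members moved unlike other genes. The 11 members called by edgeR, by limma and by edgeR without the hair libraries were Krt7 and Krt80, the epidermal Krt5, Krt14, Krt15, Krt17 and Krt6a, and the follicle genes Krt25, Krt28, Krt35 and Krt75. No keratin-associated protein was among them.

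In the second sampling most follicle and basal epidermal keratins were lower than in the first sampling of the same cohorts. Krt5 had 0, 0.035 and 2.23 CPM in the second sampling (lowest, median and highest of 90) and 0, 0.178 and 3.90 CPM in the first, with 38 and 16 libraries at 0. Krt14 had 0, 0.0795 and 2.10 CPM in the second and 0, 0.171 and 3.27 CPM in the first. The ranges of both genes overlap widely and the shift lies in the medians. The differences on the log2 scale were -1.22 ± 0.34 for Krt5 (SE, edgeR adjusted p = 8.9e-04), -1.06 ± 0.28 for Krt14 (5.6e-04) and -2.09 ± 0.40 for Krt15, a keratin of basal and follicle stem cells (1.9e-06). The suprabasal Krt10 (-0.03 ± 0.24, edgeR adjusted p = 0.91) and Krt1 (1.00 ± 0.52, 0.082) were not called.

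By list, 63 of 77 tested members were called lower and 1 higher, against 30.6% and 31.4% of all genes tested (62.1% in either direction). They were 13 of 15 hair keratins, 7 of 8 inner root sheath keratins, 33 of 37 tested keratin-associated proteins, 5 of 10 tested epidermal keratins, 4 of 5 tested simple keratins and the keratin-like Krt222. Hair and keratin-associated genes mostly had their reads in the 10 hair libraries, 9 of them of the first sampling. Such genes could pass the low-count filter mainly through the first sampling. Their count called lower was thus partly set by the filter and cannot be weighed against the share of all genes. The median log2 difference was -2.48 over the tested members and -0.02 over all genes tested. The largest fitted falls were those of Krtap15 (-5.30 ± 1.16), Krtap7-1 (-5.08 ± 0.94), Krtap21-1, Krtap1-5 and Krtap6-2. The hair libraries held from 97.6% (Krtap1-5) to 99.2% (Krtap15) of the reads of these genes. All but Krtap6-2 had their highest library of the series in the second sampling, cohort 5 day 44 replicate 5. Krtap15 had a count in 1 second-sampling library, with 106.6 CPM, and in 14 first-sampling libraries with up to 65.4 CPM.

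Reads of shaft genes lay mostly in few libraries, with 97.8% of those of Krt81, 96.2% of Krt83 and 92.6% of Krt86 in the hair libraries. Without the 10 hair libraries 41 members were called lower and 3 higher (Krt7, Krt1 and Krt6b), against 60.3% of all genes tested in either direction. Krt81, Krt83 and Krt86 then differed by -0.11, -0.18 and -0.09 log2 and were not called, against -3.07 ± 0.75, -2.48 ± 0.65 and -1.81 ± 0.56 with them. The hair libraries were picked by a sum that includes these 3 genes, and 9 of the 10 were of the first sampling. Leaving them out was therefore bound to shrink these 3 differences, and the fit is no separate test of them. Krt5 was still called at -0.87, Krt14 at -0.82, Krt15 at -1.79 and Krt25 at -2.22. Limma called 13 members, against 62.9% of all genes tested, and 12 members were called in all 3 fits, namely Krt5, Krt14, Krt15, Krt17, Krt25, Krt35, Krt75, Krt8, Krt18, Krt19, Krt222 and, upward, Krt7.

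The size of the fall was also read separately in cohorts 1 to 4, first bled by day 12, and in cohorts 6 to 9, first bled from day 19. Within cohorts 1 to 4 Krt5 differed by -2.78 and Krt8 by -8.02 log2, both called, and within cohorts 6 to 9 by -0.08 and 0.87, neither called. The difference between the 2 sets of cohorts was not tested. All 8 skin fibroblast genes and all 5 tested cartilage genes were lower in the second sampling too. The fibroblast sum had medians of 10.3 CPM in the second sampling and 59.5 CPM in the first, and ranges of 2.32 to 78.7 and 9.14 to 530 CPM. Cartilage genes summed to medians of 0.0933 CPM in the second and 1.18 CPM in the first. The part of these tissues in the keratin differences was not tested.

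Over the first sampling alone, epidermal keratins were lower on later days. Krt5 had group medians of 0.347, 1.11, 0.0852, 0.294, 0.20, 0.147, 0, 0.100 and 0.0302 CPM from day 2 to day 30. Its slope was -1.20 ± 0.23 log2 per 10 days (SE, edgeR adjusted p = 7e-06), that of Krt15 -1.07 ± 0.26, that of Krt17 -1.33 ± 0.32 and that of Krt14 -0.47 ± 0.19. In all, 35 of 77 tested members were called, against 52.3% of all genes tested, with Krt7 higher and 34 lower (26.5% and 25.8% of all genes tested). Limma called 9 members, against 52.5% of all genes tested, and edgeR without the hair libraries called 55, against 49.5%. The 34 lower ones were 8 of 10 tested epidermal keratins, 10 of 15 hair keratins, 3 of 8 inner root sheath keratins, 11 of 37 tested keratin-associated proteins, Krt8 and Krt19. For the hair and keratin-associated genes among them the limit of the low-count filter given above holds here too. All 8 fibroblast genes and 7 of 9 desmosome genes were lower as well, and the fibroblast sum had medians of 37.96 CPM in cohorts 6 to 9 and 93.6 CPM in cohorts 1 to 4.

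The direction of the slope depended on which cohorts were fitted. Within cohorts 1 to 4 alone 28 members were called, all rising, against 14.3% of all genes tested that rose and 8.97% that fell. Within cohorts 6 to 9 alone 46 were called, all falling, against 1.38% that fell and 1.15% that rose. Krt5 had slopes of 0.11 and -0.52 in these 2 sets, neither called. Krt73, an inner root sheath keratin, had 5.60 and -4.34, both called. Krt7, Krt5, Krt15, Krt17, Krt35, Krt75, Krt8 and Krt19 were called by edgeR, by limma and without the hair libraries.

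Housing was compared on the 2 days with SPF blood, and only 1 SPF cohort represents that arm. On day 16, cohort 5 against SPF, 0 of 77 tested members were called by edgeR, by limma or by DESeq2, against 0.473% of all genes tested by edgeR and 0.33% by limma. At an unadjusted p under 0.05 there were 2 by edgeR, 0 by limma and 2 by DESeq2, in which 66 members lacked an adjusted p. Krt7 differed by 0.36 ± 0.36 log2 and Krt5 by 2.09 ± 1.15 (edgeR adjusted p = 0.75 and 0.47).

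On day 44, Krt8 and Krt19 were lower in 50 conventional than in 5 SPF libraries, with high values in 1 SPF library. Krt8 was at 0 in 45 of the 50 conventional libraries with a highest value of 6.84 CPM, and it had 0, 0.0666, 27.005, 0 and 0 CPM in SPF replicates 1 to 5. Krt19 was at 0 in 48 of 50 conventional libraries and at 0, 0, 12.1, 0 and 0 CPM in the SPF ones. The fitted differences were -8.38 ± 1.02 for Krt8 (SE, edgeR adjusted p = 1.3e-06) and -7.87 ± 1.18 for Krt19 (7e-05), the only 2 of 77 tested members called by edgeR, against 21.2% of all genes tested (10.2% lower). Without SPF replicate 3, which also had 171.6 CPM of Acan, 0 were called by edgeR, against 11.2% of all genes tested, 0 had an unadjusted p under 0.05, and the difference of Krt19 was 1.54. DESeq2 called 0, with 65 members lacking an adjusted p, and limma called Krt8 alone, against 19.6% of all genes tested. Without the 10 hair libraries edgeR called 6 members, all lower, against 22.1%. They were Krt8, Krt19, Krt87 and the keratin-associated Krtap1-3, Krtap16-3 and Krtap6-5.

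Within cohort 5 most members called higher on day 44 than on day 16 were high in 1 library. Krtap15 had 106.6 CPM in day 44 replicate 5 and 0 in the 9 others of day 44, against 0.212 and 0.0277 CPM in 2 libraries and 0 in the 8 others of day 16. Its fitted change was 8.90 ± 2.14 log2 (SE, edgeR adjusted p = 0.0074). Krtap19-3 had 40.1 CPM in that library and 0 in the 9 others of day 44 and all 10 of day 16, so no fold change is given for it. In all 25 of 77 tested members were called higher and 0 lower, against 8.49% and 3.88% of all genes tested. Without replicate 5 of day 44, 2 were called higher (Krt1 and Krt7) and 7 lower, against 9.17% and 4.59% of all genes tested, and the change of Krtap15 was -3.01. Without the hair libraries of both days Krt7 alone was called, against 12.7% of all genes tested, and limma also called Krt7 alone, against 12.8%.

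Krt7 in cohort 5 had 0.938, 2.27 and 4.00 CPM on day 44 (lowest, median and highest of 10) and 0.501, 1.03 and 2.21 CPM on day 16. Its change was 0.91 ± 0.29 log2 (SE, edgeR adjusted p = 0.0335), and limma and DESeq2 called it too. DESeq2 called 1 other member, Krt19, lower, with 63 lacking an adjusted p. In the SPF cohort Krt7 had 1.68, 1.46, 2.25, 0.396 and 1.13 CPM on day 44 and 0.553, 1.05, 1.21, 0.636 and 1.01 CPM on day 16. The difference between the changes of the 2 cohorts was 0.28 ± 0.50 log2 for Krt7 (edgeR adjusted p = 0.88). No member was called for that difference by edgeR (0 of all genes tested, 0%) or limma, 3 had an unadjusted p under 0.05 by edgeR, and DESeq2 called Krt19 with 73 lacking an adjusted p.

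Severity was followed as a slope on the dermatitis score with cohort in the fit. In the second sampling the 7 libraries with score 0 had Krt5 at a median of 0.233 CPM, those with score 1 at 0.122, those with score 2 at 0 and those with score 3 at 0.0240 CPM. Krt25 was above 1 CPM in 2 of the 7 libraries with score 0 and in 0 of the 83 others, and at 0 in all 27 libraries with score 2. The slopes per score point were -0.77 ± 0.23 for Krt5 (SE, edgeR adjusted p = 0.0066), -1.40 ± 0.25 for Krt15 and -3.56 ± 0.39 for Krt25 (5.3e-09). Krt7 had a slope of 0.06 ± 0.07 (edgeR adjusted p = 0.54).

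In this sampling 50 of 77 tested members were called lower with score and 0 higher, against 17.7% and 18.9% of all genes tested (36.6% in either direction). They were all 8 inner root sheath keratins, 13 of 15 hair keratins, 23 of 37 tested keratin-associated proteins, 5 of 10 tested epidermal keratins and 1 simple keratin, Krt23. Without cohort 5 day 44 replicate 5, whose score was 0, 18 were called lower, against 34.4% of all genes tested, and the slopes of Krt33a, Krt33b and Krt34 were 0.05, 0.12 and 0.52. The slopes rested also on cohort 1 day 44 replicate 6, score 0, which held 68.1 CPM of inner root sheath keratins, while no other second-sampling library but replicate 5 of cohort 5 exceeded 0.75 CPM of them. Without it alone 33 were called lower, against 32.5% of all genes tested, and without both libraries 1 of 77 was, Krt15, against 30% of all genes tested (14% lower), with 9 members at an unadjusted p under 0.05. The slopes without both, a fit chosen after the values were seen, were -1.39 ± 0.26 for Krt15, -0.51 ± 0.25 for Krt5 (edgeR adjusted p = 0.12), -0.43 ± 0.25 for Krt25 (0.19) and -0.03 ± 0.11 for Krt71 (0.88). Within cohorts 1 to 4 alone edgeR called 21 lower, against 12.4% of all genes tested. Within cohorts 6 to 9 alone it called 0 members, with 2 at an unadjusted p under 0.05, and 0% of all genes tested. Limma called 12 members, against 37.9% of all genes tested. Of the other tissue lists, 7 of 9 desmosome genes were called lower with score over all libraries of this sampling, while 3 of 8 fibroblast genes and 0 of 5 tested cartilage genes were.

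**Figure D5:**
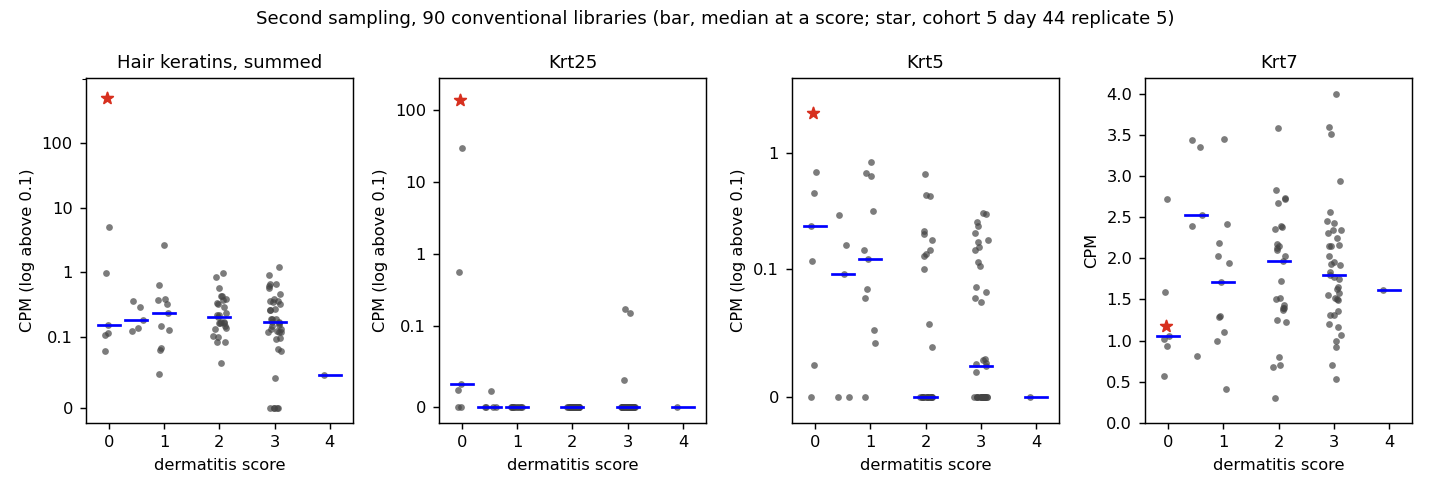
Summed hair keratins, Krt25, Krt5 and Krt7 in CPM by dermatitis score in the 90 conventional libraries of the second sampling, with bars for the median at each score and a star for cohort 5 day 44 replicate 5. The first 3 axes are logarithmic above 0.1. The star lies at 504 CPM of hair keratins at score 0, and the median of Krt5 was 0.233 CPM at score 0 and 0.0240 CPM at score 3.

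In the first sampling, days 12 to 30, 1 of 77 tested members was called with score. It was Krtap5-3, of a family known from the human hair cuticle, against 10% of all genes tested (6.19% higher and 3.86% lower), with 4.35 ± 1.37 log2 per score point (SE, edgeR adjusted p = 0.0409). It had 5.41 CPM in cohort 6 day 19 replicate 3, score 1, and 2.28 and 4.71 CPM in 2 libraries of cohort 4 with score 0. Without the hair libraries its slope was -0.13 and not called, and limma called no member, against 10.6% of all genes tested. Without those libraries edgeR called 2 other members, Krt73 and Krtap11-1, higher with score, against 9.46%. DESeq2 called 4, Krt73, Krtap11-1, Krtap19-3 and Krtap9-3, against 16.8%, and within cohorts 6 to 9 alone edgeR called 17, all higher with score, against 4.71% of all genes tested that were higher. The count in this sampling thus differed between fits. The slope in the second sampling minus that in the first was -5.44 ± 1.35 for Krt25 and -0.77 ± 0.56 for Krt5 (edgeR adjusted p = 0.10 and 0.57). For this difference of slopes 0 members were called by edgeR, where 0% of all genes tested were, and by limma, while 55 of 77 members had an unadjusted p under 0.05 by edgeR, against 12.9% of all genes tested, and DESeq2 gave no adjusted p. Without the hair libraries Krt25, Krt27 and Krtap11-1, 3 members, were called by edgeR, all with a lower slope in the second sampling, against 0.0275% of all genes tested. That fit still held cohort 1 day 44 replicate 6, score 0. The second-sampling slopes of these members were -1.75, -1.83 and -0.61 without the hair libraries. With that library also left out they were -0.43, -0.30 and -0.14, none called. The difference of slopes was not fitted without it.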

How the data were processed

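Whole-blood RNA was sequenced from globin-depleted, rRNA-depleted stranded libraries, per the labels' protocols, and the authors deposited expected counts and TPM values per gene for 190 libraries. DRAGEN and the genome build GRCm39 are named in the submitters' processing notes, and neither a version nor an annotation is given in the sources used here. Of the deposited expected counts 2.86% were not whole, so they were rounded. No column was left unmapped (0 unused).

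Genes were filtered with filterByExpr (minimum count 10, minimum total 15), which left 18192, and tested with edgeR 4.0.16 (R 4.3.3, TMM scaling, robust quasi-likelihood fits). P-values were adjusted with Benjamini-Hochberg over all genes tested and called under 0.05. Fold changes are log2 values with standard errors. Summed levels are CPM after TMM scaling. The deposited TPM values served to order members by level and as an alternative for the sums. The 2-sampling fit and the score slopes carried cohort as a term, the difference of slopes carried group, and the other fits carried no covariate. Library totals of 21444129 to 71967299 counts set the precision, and p-values measure only the spread between these libraries, since the labels do not say how libraries relate to mice across samplings.

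Alternatives were limma 3.58.1 on log2(CPM + 1), DESeq2 1.42.0, RLE size factors, no filter on low counts, fits within cohorts, libraries left out and a replicate block. Leaving out every library over 10 CPM of hair keratins and, for the score slope of the second sampling, 1 or both libraries over 10 CPM of inner root sheath keratins was chosen after seeing the data. These libraries were picked by sums of members' own levels, so such fits are no separate test of the members in those sums. Whether equal replicate numbers mark the same mouse was not settled. The correlation of their deviations was -0.173 to 0.354 over 95 pairs, with a median of 0.018 and 19 pairs over 0.1. No pair is known to come from the same mouse, so these values cannot decide it. The main fits treated libraries as independent. Named were all members called in a comparison (or, above 10, the 5 largest rises and falls), the 3 members with the highest mean CPM of each class, Krt81, Krt83 and Krt86, and members over 10 CPM in a single library. The further members named by library or in shared calls were chosen after their values were seen. Members and lists were chosen with earlier results of these data known. The statistics were tested on simulated data. That test changed only genes above a mean level that nearly all members do not reach, and it placed no high values in single libraries. It therefore does not show how the fits behave for genes at 0 in most libraries. Tables and plots were made with Python 3.11.15, pandas 2.3.3, numpy 2.4.6 and matplotlib 3.10.9.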

Additional observations from a re-analysis of the deposited data

Results flagged for a closer look

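Within groups of 5 or 10 libraries, the highest or lowest library stood apart from its neighbour on the log2(CPM + 1) scale (Dixon's test at 95%) in 38 of 140 combinations of group and measure. For normally distributed values chance alone flags about 1 in 20 groups. Several of these sums had no or few counts in most libraries, so that rate does not hold for them. Where every other library of a group had no count, any count stood apart by this test. The 38 flags therefore cannot be weighed against that rate. Every one of the 38 was a high library.

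Hair keratins stood apart in 8 groups, with 504 CPM in cohort 5 day 44 replicate 5, 166.6 CPM in cohort 6 day 19 replicate 3, 26.0 CPM in cohort 5 day 16 replicate 9, 12.2 CPM in cohort 3 day 9 replicate 7 and 11.2 CPM in cohort 9 day 30 replicate 6. Lower values that still stood apart were 4.95 CPM in cohort 1 day 44 replicate 6, 2.66 CPM in cohort 7 day 44 replicate 8 and 0.968 CPM in cohort 3 day 44 replicate 3.

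Inner root sheath and companion layer keratins stood apart in 11 groups. In the libraries just named the sums were 301 CPM (cohort 5 day 44 replicate 5), 132.5 CPM (cohort 6 day 19 replicate 3), 68.1 CPM (cohort 1 day 44 replicate 6), 59.1 CPM (cohort 5 day 16 replicate 9), 50.7 CPM (cohort 3 day 9 replicate 7) and 8.58 CPM (cohort 9 day 30 replicate 6). The others were 1.99 CPM in cohort 8 day 26 replicate 5, 0.293 CPM in cohort 8 day 40 replicate 5, 0.244 CPM in cohort 9 day 44 replicate 7, 0.106 CPM in cohort 7 day 44 replicate 2 and 0.0333 CPM in cohort 4 day 40 replicate 10.

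Keratin-associated proteins stood apart in 9 groups. They summed to 857 CPM in cohort 5 day 44 replicate 5, 582 CPM in cohort 6 day 19 replicate 3, 22.7 CPM in cohort 1 day 2 replicate 7, 11.3 CPM in cohort 5 day 16 replicate 9, 7.30 CPM in cohort 9 day 30 replicate 6 and 3.45 CPM in cohort 3 day 9 replicate 7. In 3 groups nearly all at 0, single libraries had 1.91 CPM (cohort 1 day 44 replicate 6), 0.106 CPM (cohort 7 day 44 replicate 2) and 0.0166 CPM (cohort 8 day 40 replicate 2).

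Simple epithelial keratins other than Krt7 stood apart in 7 groups, with 40.6 CPM in SPF day 44 replicate 3, 34.8 CPM in cohort 2 day 5 replicate 7, 23.0 CPM in cohort 3 day 9 replicate 2, 17.3 CPM in cohort 6 day 19 replicate 1, 1.98 CPM in cohort 6 day 40 replicate 6, 0.679 CPM in cohort 1 day 44 replicate 10 and 0.377 CPM in cohort 9 day 44 replicate 10. Epidermal keratins with Krt80 stood apart at 16.3 CPM in cohort 9 day 44 replicate 7 and 15.4 CPM in cohort 7 day 44 replicate 8. Krt80 did so at 5.92 CPM in cohort 9 day 30 replicate 9, where no other library of the group exceeded 2.99 CPM.

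Of 3 pseudogene entries with keratin symbols, which are no members, Krtap19-9a had no count in any library and the other 2 had counts in conventional libraries and none in the SPF ones. Krt8-ps reached 0.309 CPM in cohort 4 day 12 replicate 3 and Krt74 0.352 CPM in cohort 4 day 12 replicate 4.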

How the results depend on the processing

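Counts of members called stayed within 1.5 times (or summed levels kept their order) in 70 alternatives and moved further in 33, and values of single genes under an alternative reversed in 54 cases, and the rest kept their direction, some without the call. The cause was not tested. The count over 20 groups was 74, against 21 with DESeq2 and 12 with limma. This count and those that follow stand without the share of all genes called by the same fit. They therefore do not show whether members moved unlike other genes. Shares for the main fit, limma and several other fits stand with the results above. With DESeq2, members lacking an adjusted p count as not called. Second against first sampling gave 64, against 35 with DESeq2, 13 with limma and 39 within cohorts 6 to 9, and 66 to 72 with 1 library left out. The trend over days gave 35, against 9 with limma, 55 without the hair libraries and 27 to 33 with 1 library left out. Housing on day 44 gave 2, against 0 with DESeq2, 1 with limma, 6 without the hair libraries and 0 to 6 with 1 library left out (0 without SPF replicate 3, 6 without cohort 5 day 44 replicate 5). Cohort 5 between days gave 25, against 2 with DESeq2, 1 with limma, 1 without the hair libraries and 9 without day 44 replicate 5. It gave 18 to 21 with the SPF libraries of both days left out for 1 replicate number. The difference of changes gave 0, against 1 with DESeq2. The score slope of the second sampling gave 50, against 12 with limma, 21 within cohorts 1 to 4, 0 within cohorts 6 to 9, 18 without the hair libraries, 1 without both libraries over 10 CPM of inner root sheath keratins and 18 to 47 with 1 library left out. That of the first sampling gave 1, against 4 with DESeq2, 0 with limma, 3 without the filter, 17 within cohorts 6 to 9 and 2 without the hair libraries. The difference of score slopes gave 0, against 10 without the filter and 3 without the hair libraries. A replicate block gave 8 for cohort 5, 2 for the difference of changes, 66 for the samplings, 2 and 0 for housing on days 44 and 16. It is not known whether replicate numbers pair the samples (14 of 95 correlated best with their own number). Reversed slopes over days within cohorts 1 to 4 were 0.53 for Krt14, 0.95 for Krt17, 2.94 for Krt33b, 2.87 for Krt34, 1.68 for Krt35, 0.11 for Krt5, 1.74 for Krt6a, 5.60 for Krt73, 0.39 for Krt8, 2.65 for Krt81, 2.39 for Krt83, 2.24 for Krt86 and 2.89 for Krtap7-1, and within cohorts 6 to 9 0.36 for Krt15 and 0.60 for Krt6a. Between samplings within cohorts 6 to 9, Krt19 had 0.74, Krt2 1.17 and Krt8 0.87. In cohort 5, Krt83 had -0.047, Krtap15 -2.06 and Krtap6-2 -1.99 with DESeq2. Without the hair libraries Krtap15 had -3.15, Krtap19-9b -0.31, Krtap6-2 -2.44 and Krtap7-1 -0.88. Changes were also read with day 44 replicate 5 left out, or with the SPF libraries of both days left out for 1 replicate number. They ranged from -3.31 to 5.12 for Krt81, -2.27 to 4.66 for Krt83, -0.90 to 4.89 for Krt86, -3.01 to 8.91 for Krtap15, -0.21 to 8.68 for Krtap19-9b, -2.999 to 7.26 for Krtap6-2 and -4.23 to 6.84 for Krtap7-1, each lowest without day 44 replicate 5. Score slopes of the second sampling without the hair libraries, of which it holds 1, were 0.049 for Krt33a, 0.12 for Krt33b, 0.52 for Krt34, 0.043 for Krt83 and 0.077 for Krtap19-3, against -2.38, -2.51, -2.24, -1.02 and -3.07 without cohort 9 day 44 replicate 7, and 0.18, 0.73, 0.55, 0.039 and 0.081 without both inner root sheath libraries, with -1.05 for Krt83 without cohort 1 day 44 replicate 6. Within cohorts 1 to 4 they were 1.07 for Krt34, 0.13 for Krt83 and 0.17 for Krtap19-3, and within cohorts 6 to 9 0.29 for Krt81 and 0.28 for Krt83. Krtap5-3 in the first sampling had -0.13 without the hair libraries, and Krt19 on day 44 had -8.18 to 1.54 with 1 SPF library left out, highest without replicate 3. By TPM, 9 or 10 of the 10 highest libraries per class were those by CPM. Most members were at 0 in most libraries, so a median near 0 and a fitted fold change of such a gene rest on few libraries.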
